A study of Mus musculus with 2 samples.

Results

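GABPα peaks at divergent protein-coding promoters were examined in CD4+ T cells of mice. A divergent promoter was taken as a head-to-head pair, which is 2 protein-coding genes of the GENCODE M21 annotation that lie on opposite strands without overlap and whose outermost transcription starts are at most 1000 bp apart. A peak was counted at a pair when it overlapped the 1000 bp on either side of both starts. Of the 6782 deposited peaks, 367 met this rule (5.41%), and they lay at 351 of the 754 head-to-head pairs of the genome. The cells came from wild-type mice of the C57BL/6 strain and were purified with MACS beads. There was 1 ChIP library, made with the anti-GABPα antibody sc-22810X, and 1 library of input DNA made without antibody. With 1 ChIP library there were no replicates, so no p-value is given, and each 95% interval covers the counting of genes or peaks in that library alone. The list holds peak positions with an empty score column, so the height of a peak and the depth of the libraries are unknown, and the T-cell identity of the sample could not be checked in this list.

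GABP is a transcription factor of the ETS family in which the α subunit binds DNA through a GGAA core and the β subunit carries the activating region. Housekeeping genes, among them many of the genes for mitochondrial proteins, are its best known targets. Genes arranged head to head share the DNA between their starts as a promoter for both, such promoters are often rich in CpG and poor in TATA boxes, and pairs of DNA repair genes are a known example.

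The stretches between the starts are shown here for 7 pairs with a peak and a copy of CCGGAAG, the preferred ETS motif of GABP, because they show the number, the direction and the place of the motif in the DNA that both genes share. All are the plus strand of GRCm38 (mm10), read from the minus-strand gene, named before the slash, to the plus-strand gene. Capitals mark CCGGAAG or its reverse complement CTTCCGG, and no annotated exon overlaps these stretches.
Emg1/Phb2, chr6:124712179-124712335: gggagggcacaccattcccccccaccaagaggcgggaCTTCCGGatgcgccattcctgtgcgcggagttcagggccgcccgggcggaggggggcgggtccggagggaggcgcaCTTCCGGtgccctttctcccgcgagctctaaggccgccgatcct
Vmp1/Ptrh2, chr11:86683837-86683984: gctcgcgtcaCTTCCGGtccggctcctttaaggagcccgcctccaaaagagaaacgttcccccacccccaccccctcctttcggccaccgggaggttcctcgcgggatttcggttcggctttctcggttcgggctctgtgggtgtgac
Park7/Tnfrsf9, chr4:150914438-150914561: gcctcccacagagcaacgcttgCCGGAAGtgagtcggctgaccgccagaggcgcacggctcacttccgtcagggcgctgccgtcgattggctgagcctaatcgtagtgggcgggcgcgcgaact
Cog8/Nip7, chr8:107056690-107056876: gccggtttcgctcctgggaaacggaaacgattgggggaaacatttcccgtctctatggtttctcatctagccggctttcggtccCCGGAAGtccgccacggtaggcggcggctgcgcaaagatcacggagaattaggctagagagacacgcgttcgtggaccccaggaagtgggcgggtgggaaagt
Trmt6/Mcm8, chr2:132816056-132816140: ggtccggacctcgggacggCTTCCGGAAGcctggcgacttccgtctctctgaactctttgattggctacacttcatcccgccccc
Sdhd/Timm8b, chr9:50603813-50603909: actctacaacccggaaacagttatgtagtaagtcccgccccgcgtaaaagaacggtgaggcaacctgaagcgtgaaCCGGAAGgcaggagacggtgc
Kdm4d/Cwc15, chr9:14500483-14500616: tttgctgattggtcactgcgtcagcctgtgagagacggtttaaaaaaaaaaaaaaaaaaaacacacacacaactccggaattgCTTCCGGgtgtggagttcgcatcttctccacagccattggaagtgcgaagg

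These 7 stretches held 1 or 2 copies each. Emg1, which encodes a methyltransferase for ribosomal RNA, and Phb2, which encodes a prohibitin of the mitochondrial inner membrane, had 2 copies between their starts, both reading toward Emg1. Their centres were 41 bp from the start of Emg1 and 41 bp from the start of Phb2. The 419-bp peak of this pair held a further copy 119 bp inside Emg1, which made 3 in all. Trmt6, for a subunit of a tRNA methyltransferase, and Mcm8, for a helicase of DNA recombination, shared 2 copies on opposite strands that overlap each other, with centres 3 bp apart. Such overlapping copies were found in 7 of the 367 peaks and were counted as 2. Sdhd, for a subunit of respiratory complex II, and Timm8b, for a mitochondrial import chaperone, had 1 copy 18 bp from the start of Timm8b.

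Another set of 7 stretches is shown because they lack CCGGAAG between the starts. In these, capitals mark the bare core GGAA or its reverse complement TTCC. The stretches of the last 2 pairs, Xpc/Lsm3 and Trmt5/Slc38a6, had no peak within the windows and were chosen after their values were seen.
Ncapd2/Mrpl51, chr6:125191702-125191800: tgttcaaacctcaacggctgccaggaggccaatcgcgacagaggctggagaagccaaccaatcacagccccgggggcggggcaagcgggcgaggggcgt
Prox2/Dlst, chr12:85110760-85110832: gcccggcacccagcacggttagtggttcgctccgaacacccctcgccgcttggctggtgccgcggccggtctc
Psmb1/Tbp, chr17:15499752-15499887: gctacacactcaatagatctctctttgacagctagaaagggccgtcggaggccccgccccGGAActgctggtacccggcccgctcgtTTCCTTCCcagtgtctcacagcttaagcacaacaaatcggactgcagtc
Mrps12/Sars2, chr7:28741821-28741991: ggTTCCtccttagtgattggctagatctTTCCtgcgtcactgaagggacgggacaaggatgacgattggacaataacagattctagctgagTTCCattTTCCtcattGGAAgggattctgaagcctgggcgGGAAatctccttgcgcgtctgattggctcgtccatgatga
Rps27/Rab13, chr3:90213652-90213694: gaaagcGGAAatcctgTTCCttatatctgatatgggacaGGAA
Xpc/Lsm3, chr6:91515889-91515927: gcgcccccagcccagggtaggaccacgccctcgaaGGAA
Trmt5/Slc38a6, chr12:73286711-73286778: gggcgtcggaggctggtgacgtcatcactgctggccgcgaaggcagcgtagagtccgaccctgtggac

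The peaks of Prox2/Dlst and Mrps12/Sars2 held CCGGAAG just inside a gene. At Prox2/Dlst the copy was centred 4 bp into Dlst, which encodes the succinyltransferase of the 2-oxoglutarate dehydrogenase complex, under a 290-bp peak that covered both starts. At Mrps12/Sars2 it was centred 3 bp into Mrps12, for a protein of the mitochondrial ribosome. Its partner Sars2 encodes the mitochondrial seryl-tRNA synthetase, and the peak of this pair was 136 bp wide. Ncapd2, for a subunit of condensin, and Mrpl51, for a mitochondrial ribosomal protein, had a 260-bp peak with its midpoint 342.5 bp inside Mrpl51, in the noncoding part of an exon, with 1 copy 312 bp from the start of Mrpl51. The peaks of Psmb1/Tbp (343 bp) and Rps27/Rab13 (255 bp) held no CCGGAAG and covered both starts, and the stretch between the starts held 3 GGAA cores in each. Psmb1 encodes a subunit of the 20S proteasome, Tbp the TATA-binding protein, Rps27 a protein of the cytosolic ribosome and Rab13 a small GTPase of vesicle traffic. The unbound Trmt5/Slc38a6 pair held 2 copies of CCGGAAG in the 300 bp around its centre, though none between the starts. Trmt5 encodes a tRNA methyltransferase and Slc38a6 an amino acid transporter.

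Head-to-head pairs had a peak more often than coding genes outside such pairs, which are called single here. A peak was present at 351 of 754 pairs (46.6%, Wilson 95% interval 43.0 to 50.1) and within 1000 bp of 2906 of the 20451 starts of coding genes outside such pairs (14.2%, 13.7 to 14.7). The difference was 32.3 percentage points (Newcombe 95% interval 28.8 to 35.9). Over all 21938 coding genes the background was 16.4%, and genes in pairs made up 6.78% of the starts but 19.2% of the starts with a peak. The 754 pairs hold 1487 genes, 21 of which belong to 2 pairs, and counting pairs that share a gene as 1 gave 339 of 733 (46.2%). Of the bound pairs, 322 had 1 peak, 28 had 2 and 1 had 3, and 14 peaks served 2 pairs. A further 2 peaks lay within 1000 bp of 1 gene of a pair but not of both. Promoters shared by a coding gene and a long noncoding gene had a peak less often than coding pairs, at 189 of 691 (27.4%), a difference of 19.2 points (14.3 to 24.0). Coding genes whose 5′ ends overlap, which the rule leaves out, had a peak at 226 of 446 couples (50.7%). Pairs such as Surf1/Surf2 and Hspd1/Hspe1 belong to that kind in this annotation and are therefore not among the 754. Coding genes in such couples, or opposite a long noncoding gene, count as single here unless they also belong to the 754 pairs.

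Base composition moved with this difference. Composition was read in 300 bp around the centre of the pair, or in 300 bp mostly upstream of the single start. These windows are placed differently, and the part of that was not tested. In them, 80.5% of pairs and 38.4% of single starts were CpG-rich. CpG-rich was defined as a GC content of at least 50% and an observed to expected CpG ratio of at least 0.6. Among CpG-rich promoters alone, 316 of 607 pairs (52.1%) and 2147 of 7843 single starts (27.4%) had a peak, a difference of 24.7 points (20.6 to 28.8). In each of 6 bands of GC content the share was higher for pairs than for single starts, and no interval of the difference reached 0. The difference was smallest below 45% GC, at 14.5 points (4.88 to 30.7), with 33 pairs in that band. Pairs with and without a peak had nearly the same GC content, with medians of 62.7% (61.3 to 63.7) and 62% (60.7 to 63). Their median CpG ratios were 0.887 (0.859 to 0.910) and 0.821 (0.790 to 0.840), and these intervals did not overlap. Expression of the genes is not in these data, and its part in the difference was not tested. A peak had to overlap the windows of both starts, so the stretch searched at a pair was no longer than at a single start. A pair still holds 2 starts, and the part of that was not tested.

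The share of pairs with a peak was lowest where the starts were more than 300 bp apart. Bound pairs had a median distance of 117 bp between the starts (95% interval of the median 100 to 135), and unbound pairs 140 bp (120 to 151). A peak was found at 53.9% of the 128 pairs with starts 1 to 50 bp apart, at 36.4% of the 66 pairs 301 to 500 bp apart and at 34.3% of the 70 pairs 501 to 1000 bp apart. The bands between these lay from 45.5% to 52.9%, and the intervals of neighbouring bands overlapped throughout. Those of the closest band (45.3 to 62.3) and the farthest band (24.2 to 46.0) overlapped as well. The stretch within 1000 bp of both starts shrinks as the distance grows, and the part of that was not tested. Median GC content of the pairs fell with distance as well, from 64.7% in the closest band to 52.3% in the farthest, and the part of the GC content was not tested. Just inside the limit of the rule, 5 of 16 pairs with starts 801 to 1000 bp apart had a peak, and just outside it, 3 of 20 couples 1001 to 1200 bp apart had one in a shared window that shrinks with the distance.

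**Figure D1:**
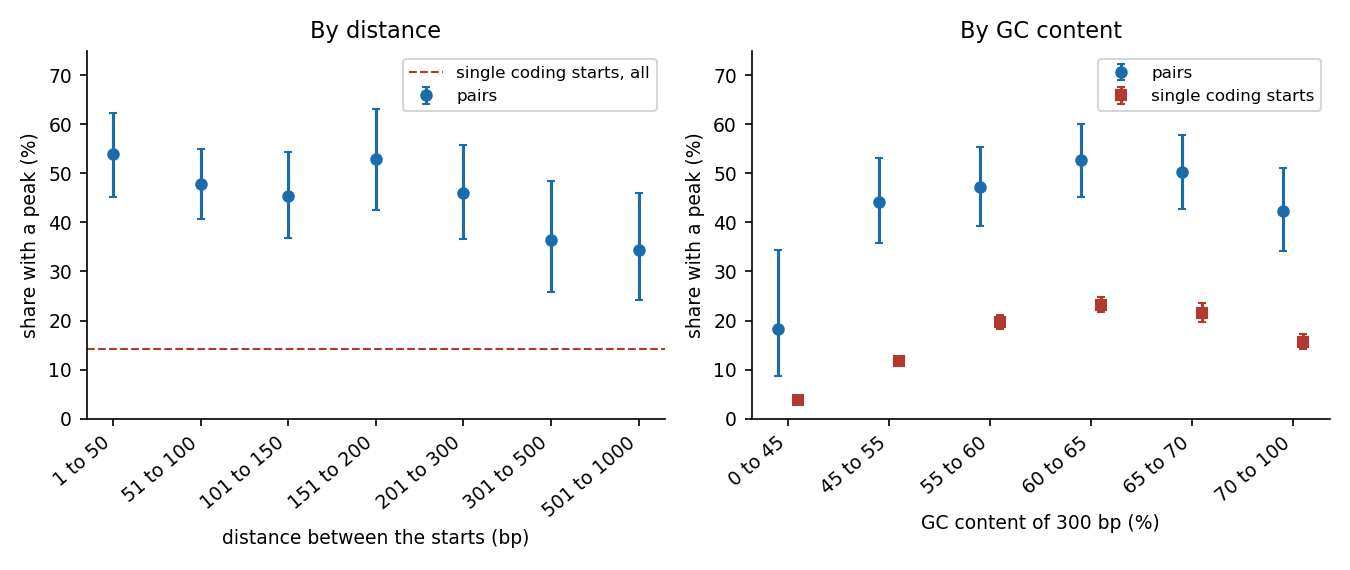
Share of promoters with a GABPα peak (percent, bars are Wilson 95% intervals) by the distance between the 2 starts of a pair in bp (left) and by GC content of 300 bp in percent (right), for head-to-head pairs (circles) and single coding starts (squares, and the dashed line at 14.2%). Pairs lie above single starts in every band of GC content, and the share of pairs is 53.9% in the closest and 34.3% in the farthest band of distance.

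Midpoints lay about as often between the starts as inside the genes. Of the 367 peaks, 184 (50.1%, 45.0 to 55.2) had their midpoint between the starts, 86 (23.4%) inside the minus-strand gene and 97 (26.4%) inside the plus-strand gene. The signed distance of the midpoint from the centre between the starts had a median of 4.5 bp toward the plus-strand gene (95% interval -4 to 11), so neither side was preferred beyond counting error. The unsigned distance had a median of 57 bp, and 230 peaks (62.7%) lay within 100 bp of the centre. These distances are bounded by the geometry of close pairs: the median was 26 bp in pairs with starts 1 to 50 bp apart, where 24 of 70 midpoints (34.3%) lay between the starts, and 80 bp in pairs 151 to 200 bp apart, where 28 of 49 (57.1%) did. Both starts were covered by 165 peaks (45.0%), only the minus-strand start by 58, only the plus-strand start by 63, and neither by 81 (22.1%). At least 1 start was covered by 77.9% of these peaks, against 67.9% of the 2776 peaks at single coding starts, a difference with an interval of 5.19 to 14.3 points. A pair offers 2 starts to cover, so this difference does not compare like with like.

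In pairs with starts more than 300 bp apart there were 54 peaks, none of which covered both starts. Of these, 43 (79.6%) had their midpoint within 150 bp of 1 of the starts, 23 at the minus-strand and 20 at the plus-strand gene, and 4 lay farther from either start than 33.3% of the distance between them. A peak at each start was found in 4 of these pairs, named here after their values were seen. They were Mastl/Yme1l1, with a kinase of mitosis and a mitochondrial protease, Pfdn6/Wdr46, with a prefoldin subunit and a protein of ribosome biogenesis, Qpctl/Snrpd2, with a Golgi glutaminyl cyclase and a core protein of the spliceosome, and Zfp672/Sh3bp5l. At Pfdn6/Wdr46, with starts 317 bp apart, the peak at Pfdn6 was 213 bp and that at Wdr46 180 bp wide, and each held 2 copies of CCGGAAG. At Zfp672/Sh3bp5l, 385 bp apart, the peaks were 185 and 208 bp wide, and only that at Zfp672 held a copy. Gart/Son, where Gart encodes an enzyme of purine synthesis and Son a splicing protein, had starts 554 bp apart and a single 199-bp peak with its midpoint 4 bp from the start of Gart. Tada3/Arpc4 was the pair with 3 peaks, of 110, 178 and 217 bp, with midpoints 332.5 and 49.5 bp inside Tada3 and 27 bp inside Arpc4. Tada3 encodes a subunit of histone acetyltransferase complexes, and Arpc4 a subunit of the actin-nucleating Arp2/3 complex.

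**Figure D2:**
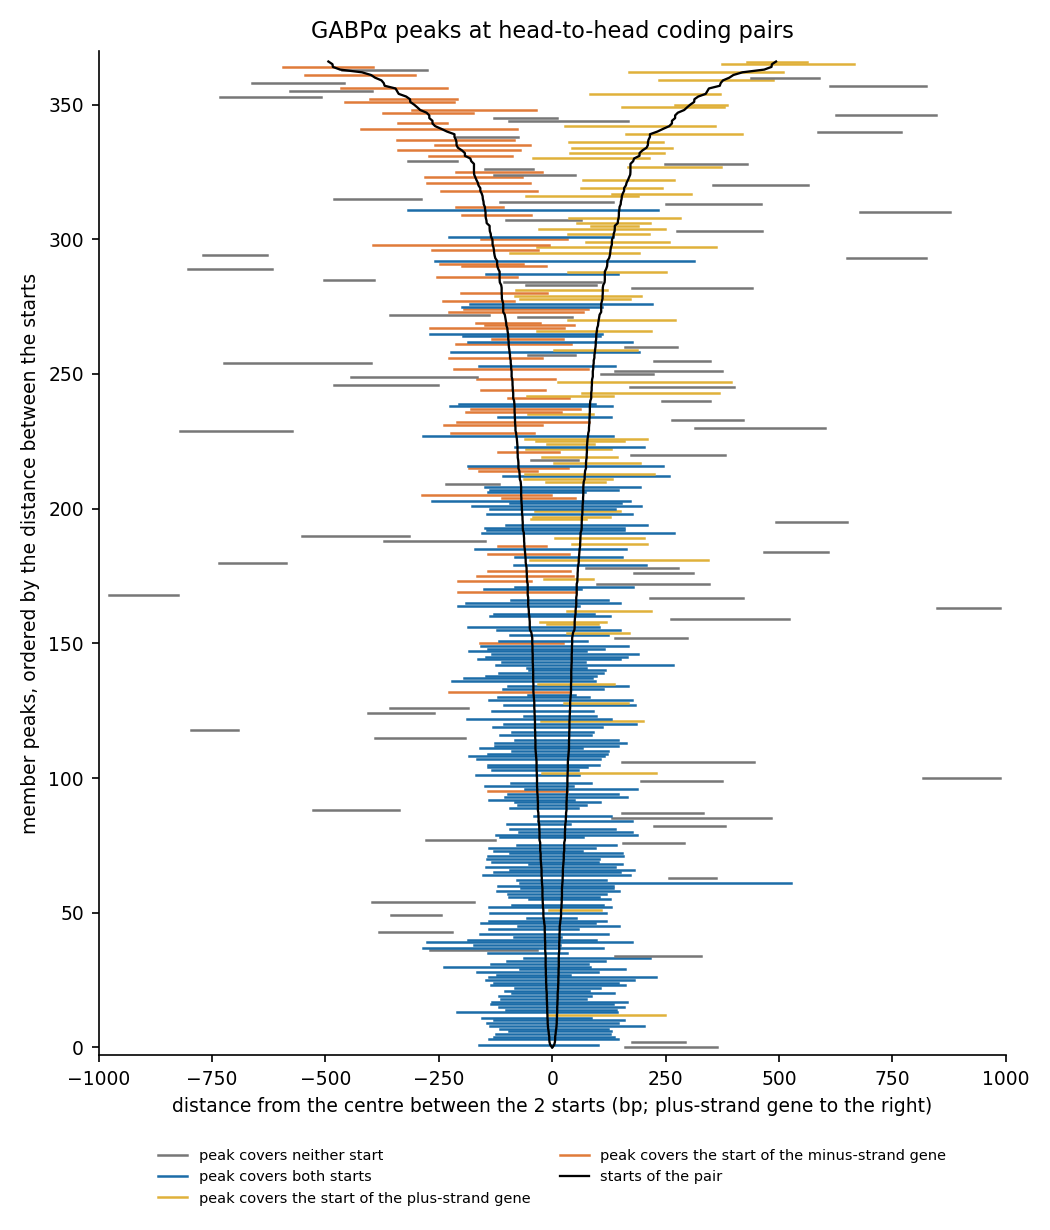
Each horizontal bar is 1 of the 367 peaks, drawn by its distance in bp from the centre between the 2 starts of its pair and ordered from the closest to the widest pair; the black curves are the starts and the colours tell which starts the peak covers. Peaks over both starts (165) fill the close pairs, and in wide pairs the peaks follow either black curve.

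Of the 183 peaks with the midpoint inside a gene, 164 (89.6%) had it in a noncoding part of an exon, 4 in a coding exon and 15 in an intron. The median distance from the start of that gene was 51 bp. In 68 cases the peak lay wholly inside a gene and covered neither start of the pair, and 43 of these (63.2%) covered the start of another annotated transcript. The farthest was that of Ddx25/Pus3, whose midpoint was 868.5 bp inside Pus3, a gene for a tRNA pseudouridine synthase, where it covered another transcript start. The other peaks over 800 bp from both starts were those of Wrap53/Trp53 (866 bp, inside Trp53) and Nfya/Oard1 (846.5 bp, inside Nfya), and neither covered another transcript start. Of the peaks that covered neither start, 45.7% held CCGGAAG. Their median width was 180 bp and that of peaks over both starts 261 bp, a split that depends on width by construction.

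The peaks had a median width of 221 bp (212 to 231) with a range of 104 to 599 bp. The median was 212 bp (208 to 216) for peaks at single coding starts and 157 bp for all peaks. Peaks over 300 bp made up 14.2% of those at pairs and 14.8% of those at single starts, a difference of -0.601 points (-4.08 to 3.54). No peak at a pair was mostly soft-masked, that is, had at least 50% of its bases in repeats or low-complexity sequence marked in the reference. A count of 0 of 367 has an upper Wilson bound of 1.04%, whereas 39.8% of all peaks and 1.62% of peaks at single starts were mostly soft-masked.

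The widest peak, 599 bp at chr17:35916340-35916938, lay at Mrps18b/Ppp1r10, for a mitochondrial ribosomal protein and a regulatory subunit of protein phosphatase 1, whose starts are 45 bp apart. Other wide peaks were those of Atg12/Ap3s1 (552 bp), for a ubiquitin-like protein of autophagy and a subunit of an adaptor complex, and Dhx38/Txnl4b (454 bp), of which Dhx38 is a helicase of the spliceosome. Arfip2/Gm45799 (438 bp), Vmp1/Ptrh2 (431 bp), Park7/Tnfrsf9 (426 bp), Emg1/Phb2 (419 bp), Cog8/Nip7 (416 bp) and Fbxo38/Spink10 (403 bp) also had peaks over 400 bp. These 9 peaks all covered both starts of their pair, and among them only those of Atg12/Ap3s1 and Dhx38/Txnl4b lacked CCGGAAG. The smallest width in the list, 104 bp, was shared by 7 peaks at pairs, which were those of Atg13/Harbi1, Cep128/Tshr, Cramp1l/Ift140, Gtf3c4/Ddx31, Ndufa1/Rnf113a1, Rad54l/Pomgnt1 and Rps6kb1/Tubd1. The peak of Ndufa1/Rnf113a1, where Ndufa1 encodes a subunit of respiratory complex I, still covered both starts, which are 82 bp apart.

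CCGGAAG was found on either strand in 218 of the 367 peaks (59.4%, 54.3 to 64.3). The share was 58.5% in peaks at single coding starts, a difference of 0.935 points (-4.48 to 6.17), and 31.7% in all peaks. The shorter CGGAAG was found in 80.4% and GGAA in 99.2% of the peaks at pairs. At single coding starts these shares were 77.5% and 98.8%, and in all peaks 43.2% and 86.2%. Pairs differed from single starts by 2.90 points (-1.73 to 6.96) for CGGAAG and by 0.371 points (-1.22 to 1.09) for GGAA. Peaks without GGAA included those of Mrpl41/Pnpla7 and Klc4/Mrpl2. The number of CCGGAAG copies was 0 in 149 peaks, 1 in 158, 2 in 53 and 3 in 7. Peaks with 3 copies were named after their values were seen and lay at Cks1b/Shc1, Emg1/Phb2, Mastl/Yme1l1, Rpa3/Umad1, Scnm1/Lysmd1, Spata17/Gpatch2 and Wdr27/1600012H06Rik. Wider peaks held the motif more often, from 32% of the 50 peaks of 104 to 150 bp to 82.7% of the 52 peaks over 300 bp. A wider peak also offers more bases for a match, and the part of that was not tested. In each of 5 bands of width the interval of the difference from single starts included 0. Where a peak held CCGGAAG, the copy nearest to the midpoint lay a median distance of 19.25 bp away, and in 179 of 218 peaks (82.1%) it was within 50 bp.

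**Figure D3:**
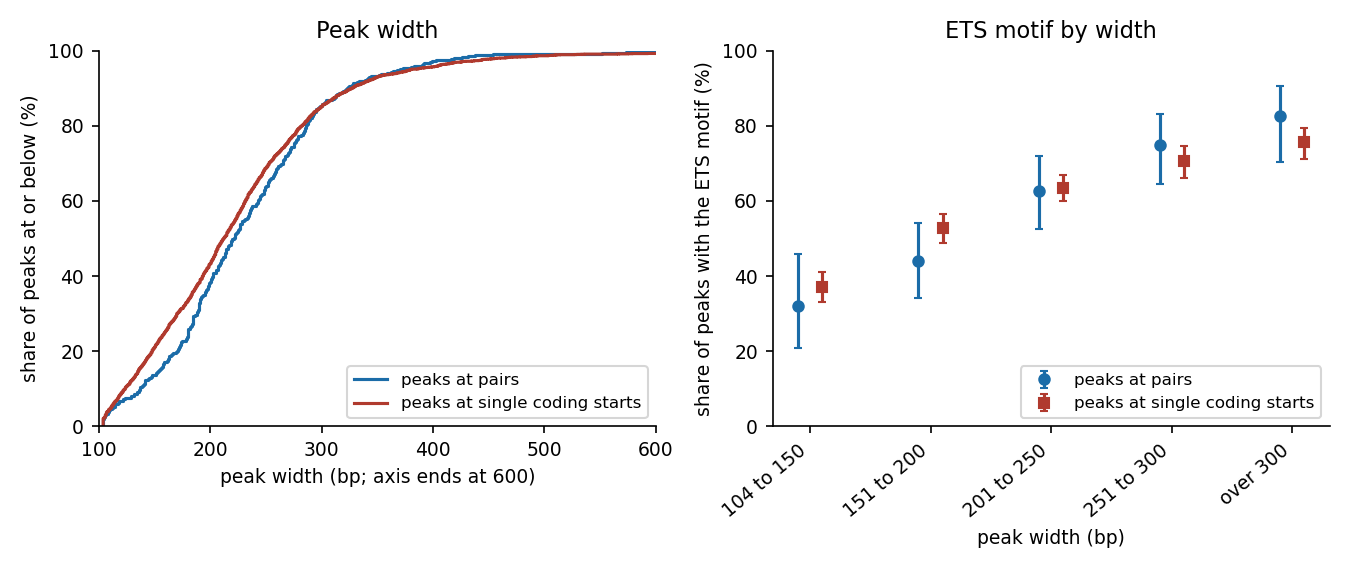
Left, the share of peaks (percent) at or below each width in bp for peaks at pairs and at single coding starts, with medians of 221 and 212 bp. Right, the share of peaks with the ETS motif CCGGAAG (percent, Wilson 95% intervals) by band of width in bp, which rises from 32% to 82.7% at pairs (circles) and overlaps with single starts (squares) in all 5 bands.

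The copies showed no preferred direction beyond counting error. Of 285 copies in the peaks, 145 (50.9%, 45.1 to 56.6) lay on the plus strand, and of 104 copies between the starts that were nearer to 1 of them, 56 (53.8%) read toward the nearer start. Of the 180 copies inside a gene, 91 (50.6%) were on the strand of that gene. Between the starts there were 105 copies (36.8%), on 32.5% of the bases of the peaks, which is 3.82 copies per kb against 3.16 per kb inside genes. In peaks with exactly 2 copies, 10 had both on the plus strand, 19 both on the minus strand, 11 facing each other and 13 back to back, with a median spacing of 41 bp between centres.

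Pairs with the motif had a peak far more often than pairs without it. CCGGAAG was present within 1000 bp of both starts in 355 pairs, 254 of which (71.5%) had a peak, and absent there in 399 pairs, 97 of which (24.3%) had a peak, a difference of 47.2 points (40.6 to 53.2). Within the 300 bp around the centre the corresponding values were 178 of 211 (84.4%) and 173 of 543 (31.9%). With 1 copy there, 129 of 159 pairs (81.1%) had a peak, with 2 copies 44 of 47 (93.6%), and with 3 or more 5 of 5. For single coding starts the share was 64.0% with and 8.94% without the motif in the 300 bp mostly upstream of the start. Pairs were higher by 20.4 points (14.5 to 25.2) with it and by 22.9 points (19.1 to 27.0) without it. The windows of pairs and single starts are placed differently, and the part of that was not tested. Among CpG-rich promoters with the motif the values were 85.9% for pairs and 74.4% for single starts, a difference of 11.5 points (5.56 to 16.3). Among CpG-rich promoters without it they were 35.5% and 17.0%, a difference of 18.5 points (13.9 to 23.4).

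**Figure D4:**
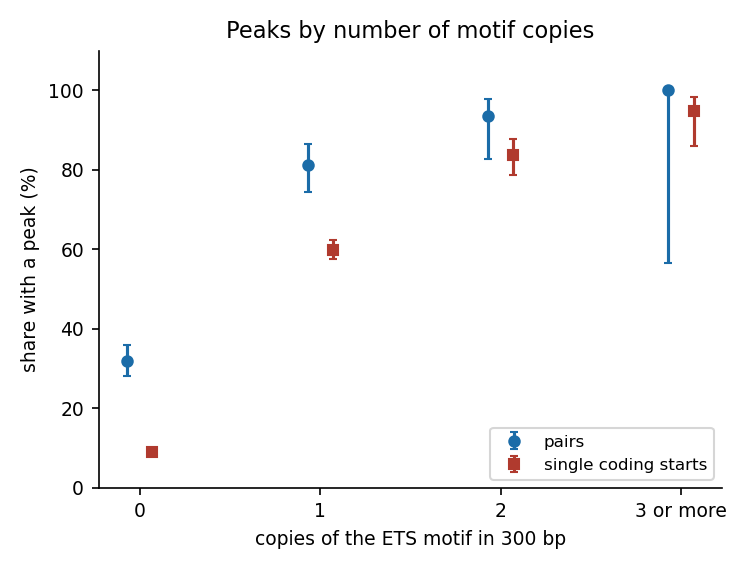
Share of promoters with a GABPα peak (percent, Wilson 95% intervals) by the number of copies of the ETS motif CCGGAAG in 300 bp. The 300 bp lie around the centre of a pair (circles) or mostly upstream of a single coding start (squares). Pairs rise from 31.9% without the motif to 93.6% with 2 copies, and only 5 pairs held 3 or more.

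The 33 pairs that held CCGGAAG in the central 300 bp without a peak included Mcm4/Prkdc, for a subunit of the replicative helicase and the DNA-dependent protein kinase, with starts 466 bp apart and 1 copy. They also included Aurka/Cstf1, Rad51c/Tex14, Sbds/Tyw1 and Styxl1/Mdh2, each with 1 copy. The 3 unbound pairs with 2 copies were Cenpx/Lrrc45, Efcab11/Tdp1 and Trmt5/Slc38a6. These examples, apart from Mcm4/Prkdc, were chosen after their values were seen. The list carries no read counts, so a weak signal below the peak caller's threshold cannot be told from no signal at these pairs.

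In windows of 200 bp around the peak midpoints, 10 motifs were counted on both strands. CCGGAAG was in 57.2% of the windows at pairs and in 9.56% of windows at all coding starts. AAGATGGCG, a YY1 motif, was in 22 windows (5.99%) at pairs and in 3.46% at single starts, a difference of 2.54 points (0.399 to 5.52). ACTACAA, a part of the ZNF143 motif, was in 25 windows (6.81%) at pairs and in 3.75% at single starts, a difference of 3.07 points (0.776 to 6.18). For the other 8 motifs, which were CCGGAAG and motifs of NRF1 (GCGCATGCG), Sp1 (GGGCGG), NF-Y (CCAAT), CRE (TGACGTCA), E2F (TTTCGCGC), the E-box (CACGTG) and the TATA box (TATAAA), the interval of the difference included 0. No interval was adjusted for the 10 comparisons. In the central 200 bp of the pairs, TATAAA was present at 1.71% of pairs with and 5.21% of pairs without a peak, a difference of -3.50 points (-6.28 to -0.849). CCGGAAG was there in 42.5% and 4.71%. For the other motifs the interval of this difference included 0. AAGATGGCG was in 4.56% of pairs with and 2.23% of pairs without a peak (-0.288 to 5.24). ACTACAA was in 4.56% and 3.97% (-2.36 to 3.70). A match to these letters is a description and not a binding site.

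The genes of the pairs were grouped by role, and the numbers are of genes in pairs that had a peak, to be read beside the 46.4% of all 1487 genes in pairs. The lists were drawn by patterns of gene symbols. They are not complete and can hold genes of other roles, so the counts and the widest peaks are those of the listed genes. Genes of these roles that the patterns missed include Cox4i1 of respiratory complex IV (368-bp peak, with Gm27021) and Rpl36al of the cytosolic ribosome (225 bp, with Mgat2). They also include Emg1 (419 bp), and Dhx38 (454 bp) and Snrnp200 (341 bp) of the spliceosome. All of these were noticed among the bound pairs after their values were seen. Genes of unbound pairs were missed as well, such as Fau of the cytosolic ribosome. For mitochondrial translation and respiration, a peak was present at 13 of 18 mitochondrial ribosomal protein genes, 9 of 18 subunits of the respiratory complexes, 5 of 10 of their assembly factors and 5 of 7 import and chaperone genes. Outside pairs the counts were 34 of 61, 27 of 65, 19 of 33 and 19 of 32. The widest peaks of the mitochondrial ribosome list were at Mrps18b, Mrpl40 (383 bp, with Hira), Mrpl10 (285 bp, with Lrrc46) and Mrps18c (278 bp, with Helq). Zfp661/Mrps5, Mrpl37/Cyb5rl, Mrpl54/Apba3, Mrpl32/Psma2 and Mrpl49/Fau had no peak, and none of these 5 held CCGGAAG in the central 300 bp. Among the listed respiratory subunits, Uqcrh of complex III (295 bp), Sdhd (272 bp) and Sdhc (261 bp) of complex II and Uqcrq of complex III (254 bp) had the widest peaks. Assembly factors with a peak were Ndufaf7 and Ndufaf8 for complex I, Bcs1l for complex III, and Coa5 and Sco1 for cytochrome c oxidase. Import genes with a peak were Timm23, the channel of the inner membrane translocase, with a 300-bp peak and 2 motif copies, and Timm8b, Timm9, Tomm6 and Pmpca.

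For translation, 6 of 7 translation factor genes, 4 of 5 aminoacyl-tRNA synthetase genes, cytosolic and mitochondrial together, and 3 of 8 listed cytosolic ribosomal protein genes in pairs had a peak. The intervals in pairs were 48.7% to 97.4% for the factors and 37.6% to 96.4% for the synthetases. Counts outside pairs were 35 of 68 factor genes and 15 of 32 synthetase genes. The factor genes were Eif1a (359 bp), Eif2s1 (297 bp), Eif3i (287 bp), Eif2b1 (265 bp), Eif3k (207 bp) and Eif5b (148 bp). The synthetase genes were Rars2 (265 bp), Yars (225 bp), Kars (201 bp) and Sars2 (136 bp). The ribosomal protein genes Rps27, Rps24 and Rpl4 had peaks of 255, 195 and 180 bp, none with CCGGAAG, and Rpl7a, Rpl9, Rpl35a, Rps2 and Rps28 had none. Outside pairs 50 of 72 listed cytosolic ribosomal protein genes (69.4%) had a peak, and the interval for those in pairs was 13.7% to 69.4%. Listed genes for the processing of tRNA and rRNA had a peak in 10 of 22 in pairs, among them Trmt6 (314 bp) and Imp4 (279 bp). The count outside pairs was 37 of 72.

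For transcription and splicing, a peak was present at 16 of 28 listed genes of RNA polymerases, general factors, Mediator and Integrator. The count was 12 of 22 for splicing and mRNA processing genes. Counts outside pairs were 51 of 101 for the transcription list and 49 of 86 for the splicing list. Transcription genes in pairs with a peak included Tbp and Med8, a Mediator subunit with a 272-bp peak. The splicing genes included Srsf11 (298 bp) and Hnrnpul2 (288 bp), for RNA-binding proteins of splicing and mRNA processing. For the genome, 19 of 37 genes listed under replication and repair in pairs had a peak, a count that includes Npat. The count outside pairs was 43 of 99. Those in pairs included Pms2 of mismatch repair (392 bp), Mcm8 (314 bp), Rad1 of the checkpoint clamp (300 bp) and Rpa3 of the single-strand binding complex (292 bp, with 3 motif copies). The 248-bp peak of Atm/Npat, for the DNA damage kinase and an activator of histone genes, covered the start of Npat and held no CCGGAAG. That of Brca1/Nbr1, for a repair ubiquitin ligase subunit and an autophagy receptor, was 158 bp wide, covered the start of Brca1 and held none either. Cell cycle and centrosome genes had a peak in 15 of 39, among them Smc6 (391 bp), and chromatin genes in 8 of 12, among them Brd9 (370 bp). Counts outside pairs were 52 of 187 and 37 of 133.

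For protein turnover and traffic, a peak was present at 5 of 8 proteasome genes, 18 of 36 genes of the ubiquitin system and 15 of 26 genes of vesicle traffic and autophagy. Counts outside pairs were 22 of 43, 74 of 278 and 85 of 238. Psmb1 (343 bp) and Psmc2 (282 bp), Fbxo38 (403 bp) and Fbxl6 (322 bp), and Atg12 (552 bp) and Cog8 (416 bp) were among the genes with wide peaks in these 3 lists. Genes listed as zinc finger genes by their symbols had a peak in 16 of 26 (61.5%, 42.5 to 77.6). Outside pairs the count was 153 of 440 (34.8%, 30.5 to 39.3). The 16 include Zbtb8os, which was listed by its symbol alone. Zfp942/Zfp943 and Zfp944/Zfp758 are pairs of 2 zinc finger genes, each with 2 peaks.

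Histone and immune genes had the lowest shares of the 19 lists. Of 27 histone genes in pairs 2 had a peak (7.41%, 2.06 to 23.4), and outside pairs 4 of 55 (7.27%). Of 13 pairs of 2 histone genes, 1 had a peak, Hist1h2ac/Hist1h2bc. That peak was 174 bp wide with its midpoint 611.5 bp inside Hist1h2bc, so it did not lie at the shared promoter, and 0 of the 13 pairs held CCGGAAG in the central 300 bp. Of the 349 listed T-cell and immune genes, 7 were in pairs. A peak was present at 2 of the 7 (28.6%, 8.22 to 64.1), against 9 of 342 (2.63%, 1.39 to 4.92) outside pairs. The 2 were Tnfrsf9, for the costimulatory receptor 4-1BB, and Tnfaip1 (323 bp, with Ift20). Tnfrsf9 shares its 426-bp peak with Park7, for a protein of the oxidative stress response. Tnfaip1 was listed by its symbol and not by a role in immunity. Cd8b1, Cd274, Il11, Il17rb and H2-T22 had no peak. Pairs with at least 1 gene in any of the 19 lists had a peak in 161 of 310 (51.9%, 46.4 to 57.4), and pairs without a listed gene in 190 of 444 (42.8%, 38.3 to 47.4). Where both genes were listed the share was 27 of 59 (45.8%, 33.7 to 58.3). These 59 include the 13 histone pairs, of which 1 had a peak. Members of these lists were described by their counts, with no test of a list.

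**Figure D5:**
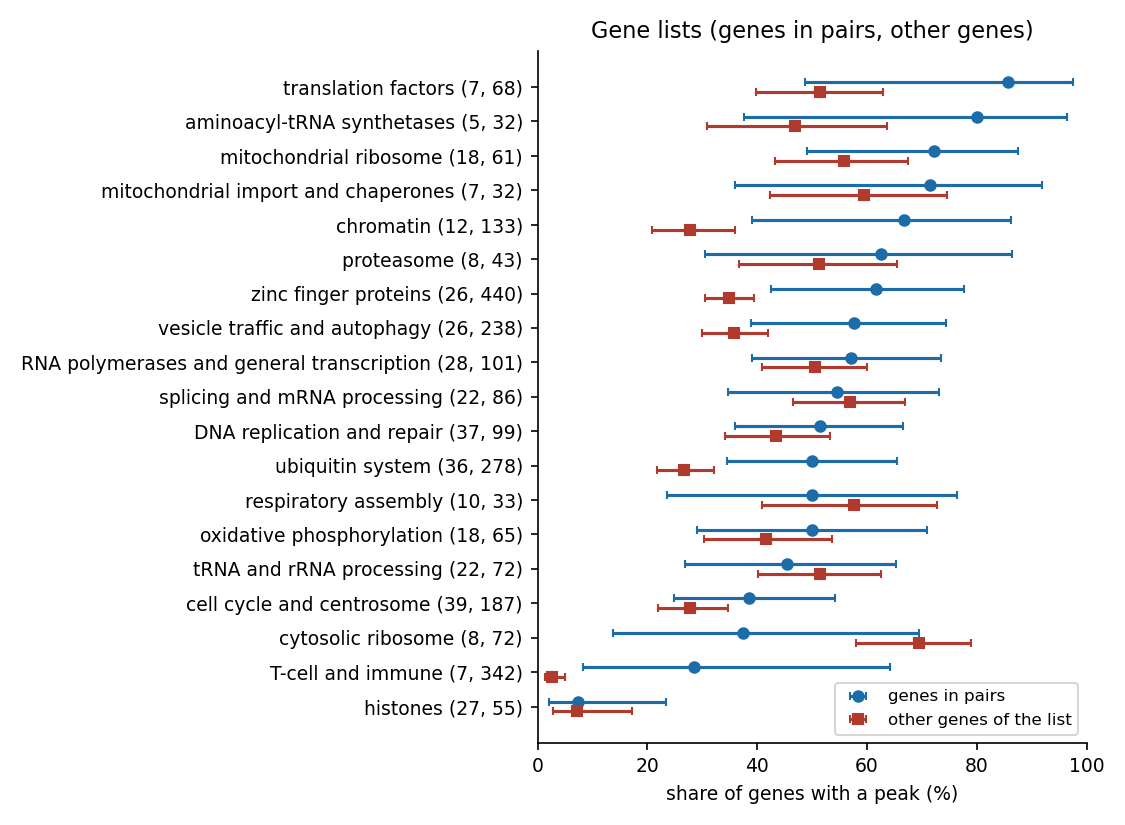
Share of genes with a GABPα peak (percent, Wilson 95% intervals) in 19 gene lists, for genes in head-to-head pairs (circles) and the other genes of the list (squares), with the number of genes of each kind in parentheses. Translation factors in pairs stand at 85.7% and histone genes at 7.41%, and most intervals of genes in pairs are wide because the lists hold 5 to 39 such genes.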

How the data were processed

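GABPα ChIP-seq of CD4+ T cells was measured in 1 ChIP library, with 1 input library as its control. The authors trimmed 36-bp reads with trimmomatic (quality under 20 removed, reads under 30 bases discarded), aligned them to mm10 with bowtie and called peaks with MACS2 (q value cutoff 0.01). Versions are not given in the sources used here. The deposited values are start and end positions of the peaks; they hold no count, fold or score. How reads matching several places were treated is not given in the sources used here. Starts were taken as 0-based and are printed 1-based.

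Pairs were built from GENCODE M21 coding genes on GRCm38.p6, and a peak was counted at an overlap of at least 1 bp. Sequences were read from the RefSeq FASTA of GRCm38.p6. Motifs are exact matches on both strands. A peak at 2 pairs was placed at the pair with the closest starts. Shares have Wilson, differences Newcombe and medians exact binomial 95% intervals. No test was run, because there is 1 library. The gene lists were built from symbol patterns. Pairs named are those with genes named in the study, textbook pairs, the widest and narrowest peaks, pairs with 2 listed genes, pairs with several peaks, histone pairs and the widest peaks of each list. Some pairs that these rules name are not reported here. The members and lists were chosen with earlier results of these data known. Alternatives changed the distance, starts, window, overlap, peak width, merging and motif. The scripts were tested on simulated data. Tools were Python 3.11.15, numpy 2.4.6, scipy 1.17.1, pysam 0.24.0, samtools 1.23.1 and matplotlib 3.10.9. Expression data of the study were not analysed here.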

Additional observations from a re-analysis of the deposited data

How the results depend on the processing

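Of 50 recomputed values, 36 stayed within the 95% interval of the reported value, or within 1.5 times it for a count, and 14 moved. Only the differences between 2 shares could turn direction, and 0 of these did. A window of 300 bp in place of 1000 bp lowered the share of pairs with a peak to 40.6% and that of single starts to 12.8%, and raised the share of midpoints between the starts to 56.2%. Peaks at or above the median width of the list gave 40.7% of pairs, 11.1% of single starts, a median width of 237 bp and CCGGAAG in 64.5% of peaks. Merging peaks within 500 bp gave a median width of 237 bp. Letting any coding transcript start form a pair, with overlap of the 2 genes then allowed as well, raised the peaks at pairs to 567. CGGAAG was in 80.4% and GGAA in 99.2% of the peaks, and every shared window held GGAA, so that no pair without it was left to compare. Alternatives chosen after seeing the data were a motif window of 300 bp, pairs that share a gene counted as 1, and comparisons within like promoters. In the last, the difference between pairs and single starts was 24.7 points among CpG-rich promoters, 20.4 points among those with CCGGAAG in 300 bp and 11.5 points among those with both. No paired analysis was possible because there is 1 ChIP library. Depth is unknown, so an absent peak cannot be told from a weak one.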
